A study of Rattus norvegicus with 25 samples.

Results

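Expression of the DNA methylation writers, erasers and readers was examined in the basolateral amygdala (BLA) and dorsal dentate gyrus (DG) of stressed and control rats. The set holds 9 genes, chosen by name: the writers Dnmt1 and Dnmt3a, the erasers Tet1, Tet2, Tet3 and Gadd45b, and the readers Mbd1, Mbd2 and Mbd3. Each was found once among the 25360 genes of either region, and all 9 passed the filter on low counts in both. No gene of the set passed the test in any comparison between control, stress-low and stress-high animals (edgeR's quasi-likelihood test with Benjamini-Hochberg adjustment). Over all genes tested the share that passed was also 0% in either region. The leading differences were small: Mbd3 was lowest in the DG of stress-low animals, and Gadd45b was lower in both stress groups than in controls at an unadjusted p of 0.0385 or higher.

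DNA methyltransferases attach a methyl group to cytosine, mostly where guanine follows (CpG). Dnmt1 copies existing methylation onto the new strand after replication, whereas Dnmt3a writes new marks and stays on in mature neurons. Tet enzymes oxidize methylated cytosine, which opens the way to its replacement by base excision repair, and Gadd45b, an activity-induced gene of dentate granule neurons, assists such active demethylation. Mbd1 and Mbd2 bind methylated CpG and recruit repressors. Mbd3 has little affinity for methylated DNA and serves as a subunit of the nucleosome remodelling and deacetylase complex (NuRD).

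The tissue came from adult male wild-type Sprague-Dawley rats. Stressed rats had been immobilized for 3 h with fox scent, and controls had stayed in the home cage with a cage change. Both were handled and went through the same behavioural tests. Stressed rats also had tail blood drawn during the stress and were housed in a separate room for a short time after it. Animals were picked from a larger cohort by a composite anxiety-like score: 0 to 2 in stress-low, 13 to 15 in stress-high and 0 to 6 in control animals, so the stress groups are its 2 extremes and were formed by behaviour after stress. On day 9, punches of 0.75 mm were taken from 200 µm sections of the left hemisphere and poly-A RNA was sequenced. The BLA gave 13 libraries (7 control, 3 stress-low, 3 stress-high) and the DG 12 (6, 3 and 3), 1 animal each, with 11 animals in both regions. Total expected counts ran from 11656439 to 22801247.

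The control library farthest from the rest on the first principal component was left out of each region (BLA animal 2 and DG animal 35), which left 23 of 25 libraries. Library names mark each control as low or high, and these were pooled. Both libraries left out were marked low. The BLA library of animal 35 carries a control name but a stress entry in its treatment field, and was taken as control, as the DG library of that animal is labelled. The DG marker C1ql2 had a median of 336 TPM (a length-corrected share of transcripts) in the DG and 2.8 in the BLA, and the amygdala marker Etv1 had 108 in the BLA and 9.62 in the DG. Of the 4 granule cell and 3 amygdala markers, Calb1 (105 in the DG, 135 in the BLA) and Rspo2 (20.1 in the DG, 12 in the BLA) went against their use. In bulk tissue, fewer cells of a type and less RNA per cell cannot be told apart.

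Promoter sequences of 3 genes are shown because Gadd45b and Mbd3 gave the lowest p-values between groups and a Tet3 start serves as a contrast in CpG content. The windows run from 250 bases before to 50 after the RefSeq start in the build GRCr8, which is not the build of the expression files, with CpG in capitals.
Gadd45b, chr7:9430669-9430968, minus strand: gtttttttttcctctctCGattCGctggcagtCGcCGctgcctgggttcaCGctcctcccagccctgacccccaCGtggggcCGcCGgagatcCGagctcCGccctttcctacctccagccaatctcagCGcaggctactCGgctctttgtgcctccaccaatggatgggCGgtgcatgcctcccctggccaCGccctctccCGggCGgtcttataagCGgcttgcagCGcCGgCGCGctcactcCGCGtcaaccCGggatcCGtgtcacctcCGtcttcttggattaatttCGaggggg
Mbd3, chr7:9963390-9963689, plus strand: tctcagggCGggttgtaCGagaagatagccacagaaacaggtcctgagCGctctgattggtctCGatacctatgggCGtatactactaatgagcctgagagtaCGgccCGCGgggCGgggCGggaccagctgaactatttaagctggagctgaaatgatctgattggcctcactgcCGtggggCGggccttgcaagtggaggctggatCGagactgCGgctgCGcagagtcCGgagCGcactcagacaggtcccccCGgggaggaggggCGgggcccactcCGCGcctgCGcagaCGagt
Tet3, chr4:117525446-117525745, minus strand: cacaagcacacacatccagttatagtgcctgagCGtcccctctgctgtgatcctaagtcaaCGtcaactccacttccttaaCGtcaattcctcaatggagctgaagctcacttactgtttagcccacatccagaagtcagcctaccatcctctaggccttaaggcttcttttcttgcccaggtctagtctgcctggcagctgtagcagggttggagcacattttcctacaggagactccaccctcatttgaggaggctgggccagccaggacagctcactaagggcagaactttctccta
In the expression files Gadd45b is ENSRNOG00000019822, Mbd3 is ENSRNOG00000028956 and Tet3 is ENSRNOG00000011387. The Gadd45b window held 27 CpG and the Mbd3 window 23, against a median of 7 over 33465 rat promoters (quartiles 3 and 19). The Tet3 window held 3, as did the window 1 base beside it, although the other two annotated Tet3 starts had 23 and 15. Over the 14 promoter windows of the 9 genes, CpG numbers ran from 3 (Tet3 and Tet1) to 39 (Tet2 and Mbd2). The half-site TGACG of the cAMP response element, searched on both strands, was present in the windows of Gadd45b, Tet2 and the 2 Tet3 starts with 3 CpG, and in 21.2% of all promoters. The full element TGACGTCA, which contains the half-site, was in none of the 14 windows and in 1.83% of all promoters.

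The levels of the 9 genes kept much the same order in the kept libraries of both regions, except for Gadd45b, which was in place 8 by median in the BLA and in place 4 in the DG. Mbd3 was first in all 23 libraries, with a median of 85.1 TPM in the BLA and 113 in the DG, and was 2.54 to 3.55 times as high as Mbd2, the next gene. Mbd2 followed with medians of 27.5 and 39.4, and Mbd1 was in place 3 by median with 21.1 and 26.7. Among the writers, Dnmt3a (13.4 and 16.4) and Dnmt1 (12.2 and 15.7) lay close together. Dnmt3a was above Dnmt1 in 11 of 12 BLA and 10 of 11 DG libraries, by a small margin. The ratio within a library had a median of 1.08 (0.807 to 1.24) in the BLA and 1.05 (0.847 to 1.15) in the DG.

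Tet2 and Tet3 could not be ranked in the DG, where medians were 10.9 and 10.8 TPM. In the BLA they had medians of 9.07 and 7.73. Tet1 was last in every library, with medians of 1.85 (BLA) and 1.53 (DG), and rested on 56 to 165 reads per kept library. Its coefficient of variation over kept BLA libraries was 19.2%, and over kept DG libraries 18.8%, compared with 7.47% and 5.5% for Mbd3.

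**Figure D1:**
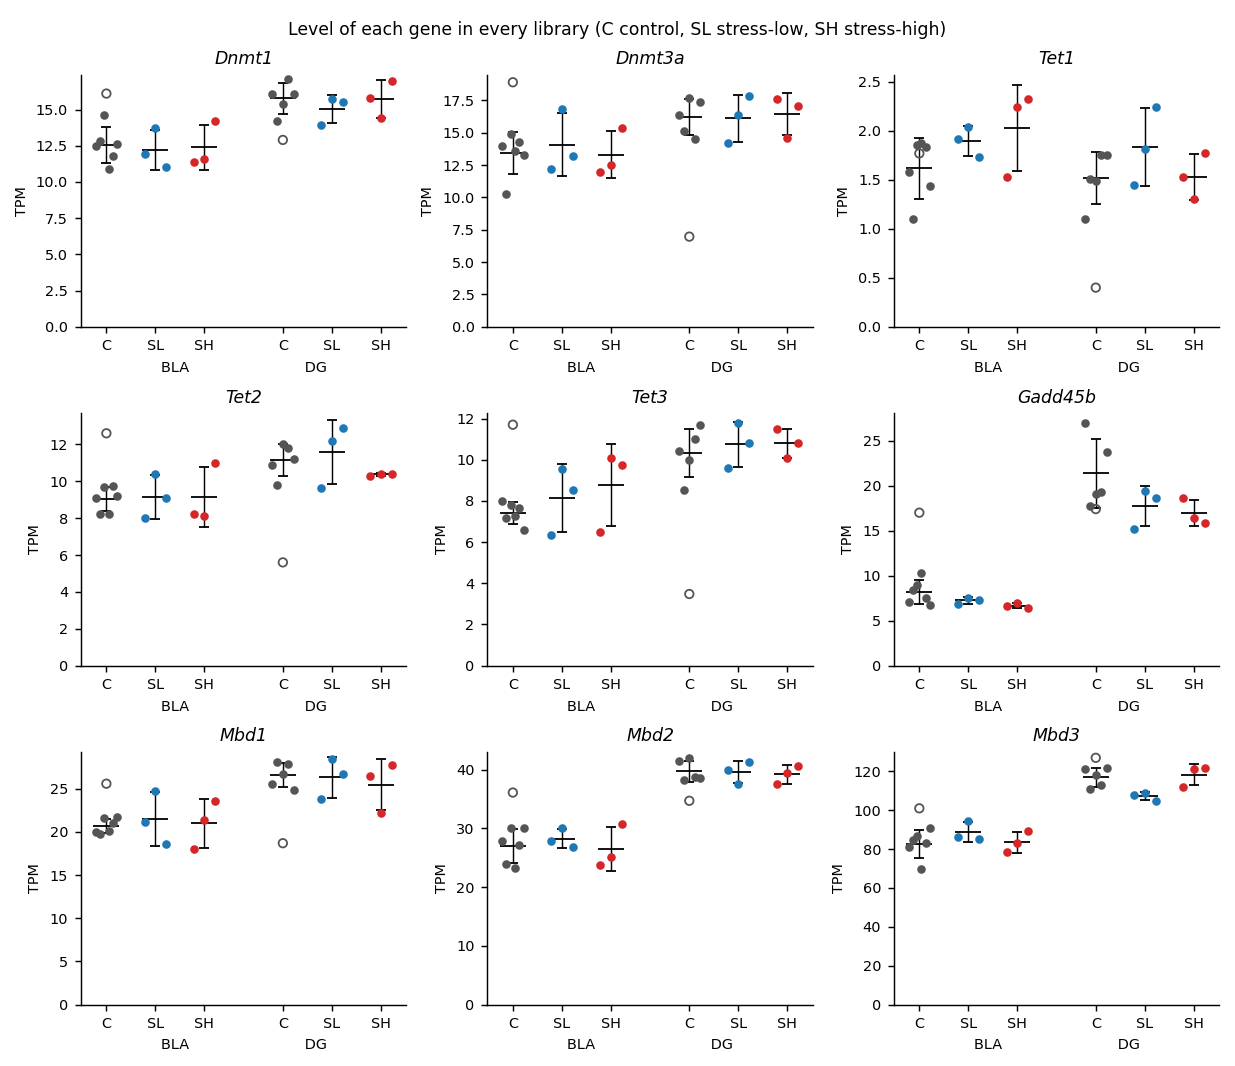
TPM of the 9 genes (one panel each) in every library of the control (C, grey), stress-low (SL, blue) and stress-high (SH, red) groups of the BLA and DG, with black bars for the mean ± SD of kept libraries and open circles for the control left out. Groups overlap in all panels but Mbd3 in the DG, where the 3 stress-low animals (105 to 109) lie below the others (111 to 122).

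The writers showed no difference between groups in either region. Dnmt1 in the BLA had 12.5 ± 1.21 TPM in controls (SD, n = 6), 12.2 ± 1.4 in stress-low (n = 3) and 12.4 ± 1.54 in stress-high animals (n = 3). In the DG it had 15.8 ± 1.09 in controls (n = 5), 15 ± 0.945 in stress-low and 15.7 ± 1.27 in stress-high animals (n = 3 each). The log2 fold changes of Dnmt1 lay between -0.07 and 0.07 over the 6 comparisons, within 95% intervals that reached no further than -0.22 and 0.23.

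Dnmt3a was as even. Its BLA means were 13.4 ± 1.63 TPM in controls, 14 ± 2.42 in stress-low and 13.3 ± 1.83 in stress-high animals, and its DG means were 16.2 ± 1.41, 16.1 ± 1.79 and 16.4 ± 1.6. Its log2 fold changes lay between -0.04 and 0.04, with intervals from -0.28 to 0.24 at the widest. The BLA library of control animal 17 had 10.3 TPM of Dnmt3a, while the other kept BLA controls had 13.3 to 14.9.

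Among the Tet enzymes, Tet1 showed the widest differences and the largest errors. In the BLA it ran from 1.1 to 1.88 TPM in controls (median 1.71). The stress-low animals had 1.92, 2.04 and 1.73, and the stress-high animals had 1.53, 2.24 and 2.33. Of the stress-high animals 2 lay above every control and 1 lay among them. The log2 fold change from control to stress-high animals was 0.32 ± 0.16 (SE) with an unadjusted p of 0.0614 and an adjusted p of 1 (edgeR). Without stress-high animal 19 it was 0.22, and without stress-high animal 7 it was 0.45 with an unadjusted p of 0.0219. In the DG, Tet1 had 1.52 ± 0.266 in controls, 1.83 ± 0.396 in stress-low and 1.53 ± 0.235 in stress-high animals.

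Tet2 had 9.03 ± 0.664, 9.16 ± 1.22 and 9.11 ± 1.6 TPM in the control, stress-low and stress-high groups of the BLA. In the DG these were 11.2 ± 0.882, 11.6 ± 1.71 and 10.4 ± 0.0551. The 3 DG stress-high animals differed by only 0.1 TPM (10.3 to 10.4), inside the range of the other groups.

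Tet3 gave different pictures by TPM and by counts. In the BLA its TPM was 7.41 ± 0.513 in controls, 8.16 ± 1.65 in stress-low and 8.76 ± 1.98 in stress-high animals. Stress-high animals 7, 19 and 20 had 6.48, 10.1 and 9.74, and stress-low animals 22, 30 and 34 had 6.35, 9.57 and 8.55. Of the 6 stressed animals, 4 therefore lay above all kept controls, which ended at 7.98. Normalized counts (expected counts scaled to a common library size) showed no such rise. They were 320, 362 and 427 in stress-high, 340, 408 and 404 in stress-low and 360 to 430 in control animals, with a log2 fold change of -0.11 ± 0.09 from control to stress-high.

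The effective length that the quantifier gave Tet3, a gene with 3 annotated transcripts, varied in the BLA. It was 4882 to 4954 bases in BLA controls, 3223 in stress-high animal 19 and 4159 to 4413 in 4 other stressed animals, and 4954 in stress-low animal 22. A shorter effective length raises TPM at the same count. The 4 stressed animals with TPM above the controls had 3223 to 4413 bases, but stress-high animal 7, with 4159, had a TPM below all kept controls. Whether transcript use of Tet3 differed between groups was not tested. In the DG, Tet3 had 10.3 ± 1.17, 10.7 ± 1.09 and 10.8 ± 0.717 TPM in control, stress-low and stress-high animals.

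**Figure D2:**
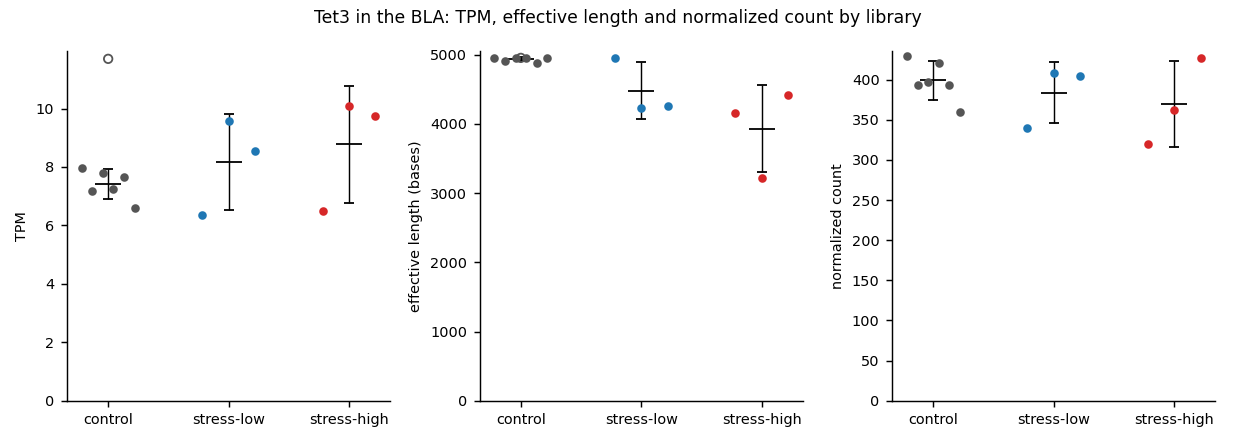
Tet3 in BLA libraries as TPM (left), effective length in bases (middle) and normalized count (right), by group, with black bars for the mean ± SD of kept libraries and an open circle for the control left out (no normalized count). The TPM of 4 stressed animals exceeds all kept controls (up to 7.98), their effective lengths are 3223 to 4413 bases, and the normalized counts of the 3 groups overlap.

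Gadd45b was the gene of the set with the lowest values after stress relative to controls. In the DG the 5 controls had 27, 17.7, 19.1, 19.3 and 23.7 TPM. Stress-low animals had 15.2, 19.4 and 18.6, and stress-high animals had 18.6, 16.4 and 15.9. The 2 highest values were controls and the 3 lowest were stressed animals, but the groups overlapped. The log2 fold change was -0.31 ± 0.13 from control to stress-high (unadjusted p = 0.0385, adjusted p = 1, edgeR) and -0.26 ± 0.14 from control to stress-low (unadjusted p = 0.0825, adjusted p = 0.732). Without control animal 2, the highest, the first was -0.21 with an unadjusted p of 0.0949, and without stress-high animal 20 it was -0.24 with an unadjusted p of 0.14.

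In the BLA, Gadd45b ran from 6.73 to 10.3 TPM in controls (median 7.96). Stress-low animals had 6.82, 7.57 and 7.35, and stress-high animals had 6.61, 6.93 and 6.38. All 6 stressed animals lay below the control median, and 2 stress-high animals lay below every control. The log2 fold changes from control were -0.21 ± 0.16 in stress-low (unadjusted p = 0.206) and -0.29 ± 0.16 in stress-high animals (unadjusted p = 0.0925), both with an adjusted p of 1. Both comparisons of a region share their controls, and most animals gave tissue to both regions, so these 4 values are not separate evidence. Between the stress groups, Gadd45b differed by -0.08 ± 0.18 in the BLA and -0.05 ± 0.15 in the DG.

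A list of 11 activity-regulated genes, such as Fos, Arc and Npas4, was set beside Gadd45b. It was chosen with earlier results of these data known. Its genes were read in the same libraries, so counts over the list are not separate evidence. From control to stress-low animals, 10 of 11 were lower in the BLA (median log2 fold change -0.31) and 11 of 11 in the DG (-0.21). From control to stress-high, 8 and 7 were lower, with medians of -0.22 and -0.08. The median over all genes tested was 0.00 each time. None of the 11 passed the test. Nr4a1 in the BLA was at -0.37 ± 0.14 from control to stress-low (unadjusted p = 0.0158, edgeR). In the same comparison of the DG, Arc was at -0.34 ± 0.15 (unadjusted p = 0.037, edgeR) and Junb at -0.21 ± 0.09 (unadjusted p = 0.0386). No other gene of the list had an unadjusted p under 0.05 in these 4 comparisons. Their adjusted p-values were 1 in the BLA and 0.709 in the DG. Cell type markers were read beside Gadd45b in the DG as well, as summed TPM. The 4 granule cell markers, which include Calb1, had 455 to 732 in controls, 443 to 525 in stress-low and 475 to 591 in stress-high animals. In the same order, 3 astrocyte markers had 464 to 789, 457 to 597 and 476 to 494. The 2 endothelial markers had 33.1 to 46.5, 30 to 40.6 and 34.7 to 36.3. The 3 oligodendrocyte markers went the other way, with 1290 to 1728, 1644 to 1756 and 1438 to 1755. The 3 excitatory markers had 3007 to 3352, 2796 to 3123 and 2748 to 3366. For 3 interneuron markers the ranges were 260 to 338, 299 to 302 and 267 to 312. For 2 progenitor markers they were 19.9 to 24.6, 16.2 to 22.5 and 18.2 to 19.5. For 3 microglia markers they were 64.1 to 80.1, 61 to 71 and 59.4 to 74.5. None of these markers was at 0. The part of any of these lists in the Gadd45b values was not tested.

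The readers Mbd1 and Mbd2 were even across groups. Mbd1 had 20.7 ± 0.853, 21.5 ± 3.11 and 21 ± 2.86 TPM in the 3 groups of the BLA, in the same order, and 26.6 ± 1.42, 26.3 ± 2.39 and 25.5 ± 2.89 in the DG. Mbd2 had 27 ± 2.93, 28.3 ± 1.63 and 26.5 ± 3.72 in the BLA, and its DG means were 39.7 ± 1.78, 39.6 ± 1.88 and 39.2 ± 1.6. Mbd2 in the DG was the steadiest gene of the set, with a coefficient of variation of 4.03%, and its fold changes there lay between -0.01 and 0.01.

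Mbd3 stood lowest in stress-low animals in the DG. These had 108, 109 and 105 TPM, the stress-high animals had 112, 121 and 122, and the controls had 121, 111, 118, 113 and 122. The stress-low animals overlapped with neither other group. The 2 stress groups of the DG also differed in depth, with total expected counts of 11656439 to 15547038 in stress-low and 16201792 to 19477932 in stress-high animals. Controls had 13487835 to 19135223. The part of depth in the Mbd3 values was not tested. The log2 fold change was 0.14 ± 0.06 from stress-low to stress-high (unadjusted p = 0.0262, adjusted p = 0.999) and -0.11 ± 0.05 from control to stress-low (unadjusted p = 0.0564, adjusted p = 0.711, edgeR). The 2 comparisons share the stress-low animals. The unadjusted p of the first was 0.111 without stress-low animal 34 and 0.18 when every library was used. In the BLA, Mbd3 had 82.7 ± 7.09 in controls, 88.7 ± 5.17 in stress-low and 83.6 ± 5.41 in stress-high animals.

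Counts over the set were set against all genes tested, 14953 in the BLA and 13850 in the DG. Called genes numbered 0 of 9 in each of the 6 comparisons, and 0% of all genes were called. DESeq2 also called 0 of 9, and called 0 genes in any BLA and 2, 2 and 3 in the DG comparisons. Between stress-low and stress-high animals of the DG, 1 of 9 had an unadjusted p under 0.05, against 3.16% of all genes, and 1 of 9 had groups that did not overlap in TPM, against 8.64%. Between control and stress-low animals of the DG, 0 of 9 had an unadjusted p under 0.05, against 7.01%, and 1 of 9 did not overlap, against 3.7%. Between control and stress-high animals of the DG the counts were 1 of 9 against 2.23%, and 0 of 9 against 1.47% for overlap.

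In the BLA, 0 of 9 had an unadjusted p under 0.05 in any comparison. The share of all genes was 1.91% between the stress groups, 2.69% from control to stress-low and 2.53% from control to stress-high. No gene of the set had groups that did not overlap in TPM, against 5.78%, 1.34% and 0.91% of all genes. The lowest p between the BLA stress groups belonged to Dnmt1 (0.06 ± 0.08, unadjusted p = 0.489, adjusted p = 1). The median size of the log2 fold change over the set was 0.02 to 0.07 in the 6 comparisons, and 0.06 to 0.09 over all genes. Standard errors in the set ran from 0.05 to 0.20.

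**Figure D3:**
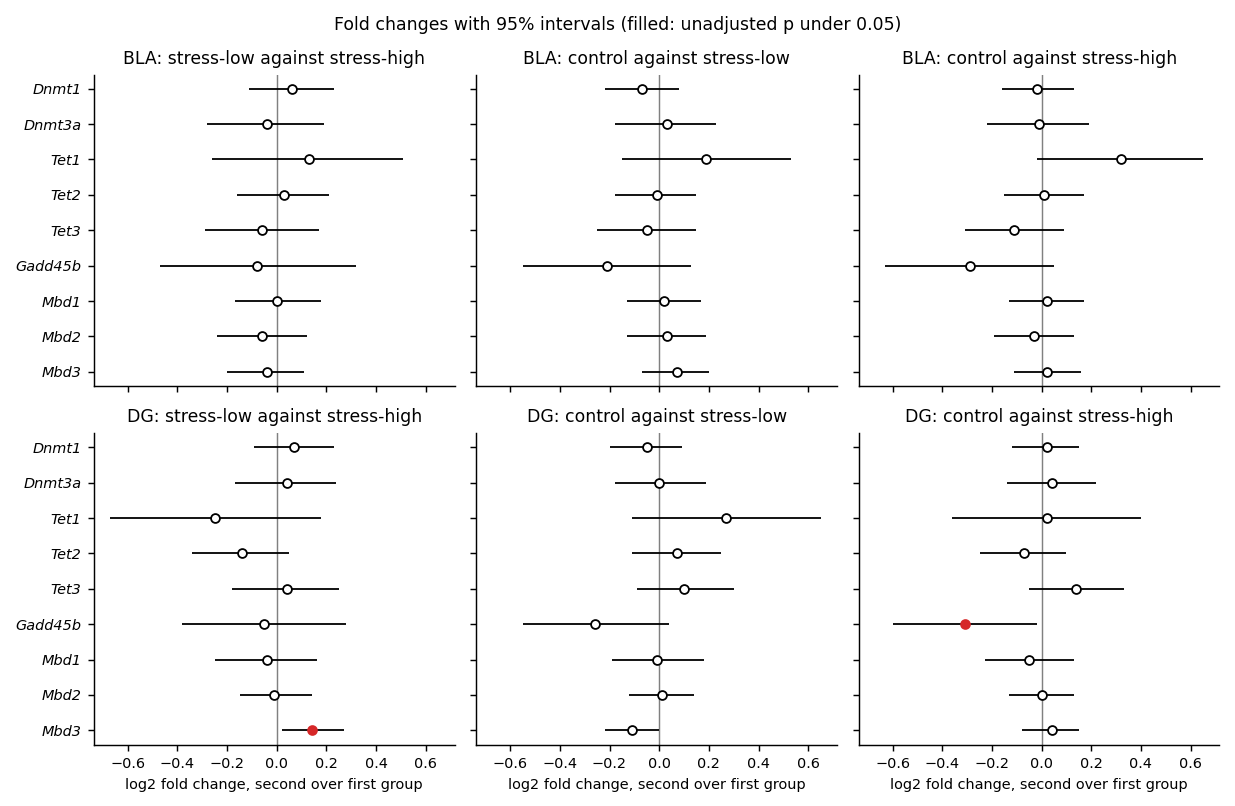
Log2 fold change of each gene (second over first group named) with its 95% interval in the 3 comparisons of the BLA (top) and the DG (bottom). Filled points have an unadjusted p under 0.05 and are Mbd3 (0.14) between DG stress groups and Gadd45b (-0.31) between DG control and stress-high animals, and all other intervals include 0.

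Whether a comparison differed between regions was tested over 15152 genes in 1 fit of both regions, which treats the 2 libraries of an animal as independent, and 0 of 9 were called, as were 0% of all genes. Mbd3 differed by 0.21 ± 0.09 between the DG and BLA fold changes from stress-low to stress-high (unadjusted p = 0.0287) and by -0.19 ± 0.08 in those from control to stress-low (unadjusted p = 0.0256), both with an adjusted p of 1 in edgeR. It was the 1 gene of 9 with an unadjusted p under 0.05 in each, against 1.9% and 3.13% of all genes. From control to stress-high the count was 0 of 9 against 1.76%, and the lowest p was that of Tet3 (0.26 ± 0.13, unadjusted p = 0.0627, adjusted p = 1). With the animal as a correlated block (limma voom), Tet3 was at 0.28 with an unadjusted p of 0.0347 and an adjusted p of 1, so that the count was 1 of 9. With every library used, its value was 0.48 with an unadjusted p of 0.067. These Tet3 values rest on counts. Mean Tet3 TPM went from 7.41 in controls to 8.76 in stress-high animals in the BLA. In the DG it went from 10.3 to 10.8. The difference between regions was not tested by TPM. With only the animals that gave a kept library to both regions, no gene of the set had an unadjusted p under 0.05 in the 2 Mbd3 differences.

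Levels in the DG and BLA were compared within the 9 animals with both libraries kept. Gadd45b had the highest ratio of the set, 2.5 at the median and 1.88 to 3.16 over animals, and was higher in the DG in 9 of 9. Mbd2 followed with a median ratio of 1.54, then Mbd3 and Tet3 with 1.39 each and Mbd1 with 1.35, and these ranges overlapped. Tet1 was the only gene of the set with a median under 1 (0.951) and was higher in the DG in 2 of 9 animals.

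The median ratio over all 12979 genes with a mean of at least 1 TPM was 1.14 (quartiles 0.873 and 1.45), and 95.4% of them lay below Gadd45b. Region and library type cannot be told apart. Effective lengths were 50 bases under gene length in the BLA and longer cuts applied in the DG, so for Gadd45b they were 1226 against 1002 to 1015 bases, which raises DG TPM of short genes. By CPM (the share of counts, with no length correction), the median Gadd45b ratio was 2.01 (1.44 to 2.64), followed by Tet3 (1.37) and Mbd2 (1.28).

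**Figure D4:**
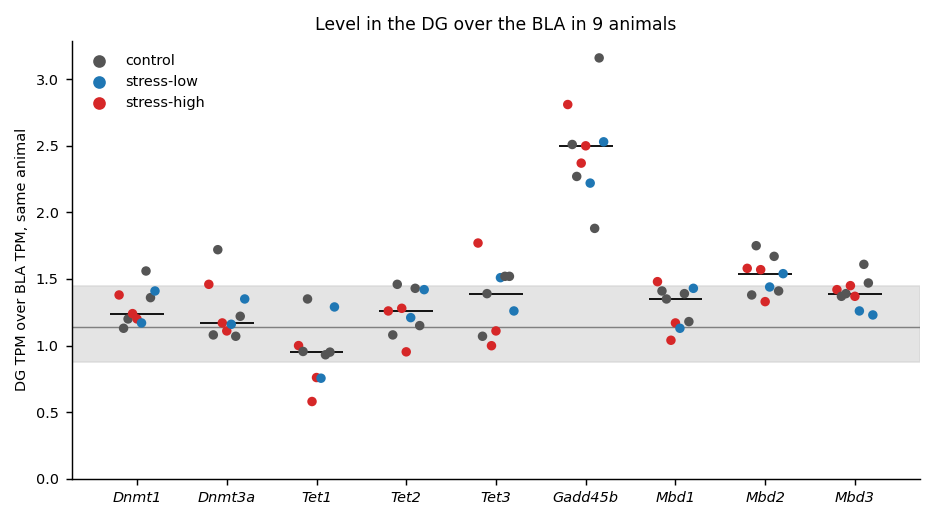
Ratio of DG to BLA TPM for each gene in 9 animals, coloured by group, with black lines for medians, and the grey line and band for the median (1.14) and quartiles over all genes. Gadd45b lies at 1.88 to 3.16 in all animals, above the band, while the medians of the other genes run from 0.951 to 1.54.

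The 2 control libraries left out stood apart over many genes, these among them. In DG animal 35, 7 of 9 genes lay below every kept library, as did 46.7% of all genes with a mean of at least 1 TPM. Tet1 had 0.4 TPM, which was 0.263 of the mean of kept controls, and Tet3 (0.337), Dnmt3a (0.43) and Tet2 (0.502) were next. The 6 genes with models over 2000 bases were at 0.263 to 0.819 and the 3 shorter ones at 0.814 to 1.09. Mbd3 (127 TPM) exceeded every kept library. The median over all genes with a mean of at least 1 TPM was 0.841. The study's methods describe a hippocampal control sample that was extracted again after low RNA quality, and its part in these values was not tested.

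In BLA animal 2, 8 of 9 genes lay above every kept library, as did 35.9% of all genes with a mean of at least 1 TPM, and the set was led by Gadd45b at 17 TPM, 2.08 times the mean of kept controls. Tet3 (1.58) and Dnmt3a (1.41) followed, while Tet1 (1.09) lay inside the range, and the median over all genes was 1.14. The summed level of the 11 activity-regulated genes was 313 TPM there and 135 to 203 in the kept controls. The summed level of the markers of striatum and central amygdala was 298, against 47.5 to 152, with none of the 3 markers at 0. Their part in the Gadd45b value was not tested. The DG library of this animal, which was kept, also had the highest Gadd45b of its region (27 TPM).

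**Figure D5:**
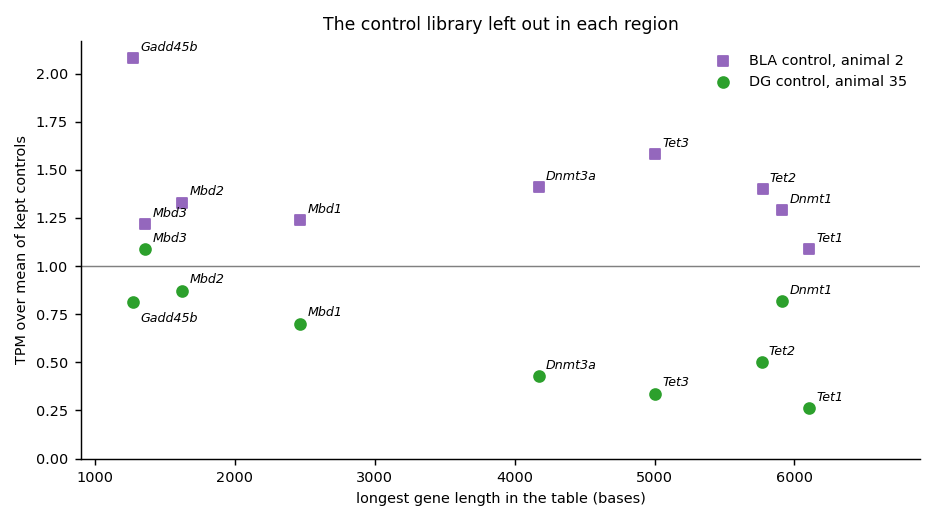
TPM of each gene in the control library left out of the BLA (squares, animal 2) or the DG (circles, animal 35), divided by the mean of kept controls, against the longest length of the gene in the table in bases. DG points of genes over 2000 bases lie at 0.263 to 0.819, and BLA points lie at 1.09 to 2.08.

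Other genes of DNA methylation were read from 5 lists of 46 genes, of which 45 were tested in each region. None passed the test in any comparison, and the share over all genes was also 0%. From control to stress-low animals of the DG, Ogt, a glycosyltransferase that binds Tet proteins, had 83.4 ± 6.45 TPM in controls and 96.5 ± 7.85 in stress-low animals (0.22 ± 0.08, unadjusted p = 0.0121). In edgeR, Mat2a, which makes the methyl donor, was at 0.13 ± 0.05 (unadjusted p = 0.0255), and Cxxc5, a CpG-binding protein, at -0.16 ± 0.07 (unadjusted p = 0.0427). All 3 had an adjusted p of 0.709. They were 3 of the 45 tested, against 7.01% of all genes with an unadjusted p under 0.05 in that comparison. No listed gene had an unadjusted p under 0.05 in the other 2 DG comparisons. Over all genes the shares there were 3.16% between the stress groups and 2.23% from control to stress-high.

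In the BLA, Rbbp4, a NuRD subunit, was at 0.14 ± 0.07 from control to stress-low (unadjusted p = 0.05 after rounding, edgeR). Gadd45a, a relative of Gadd45b, had 7.21 ± 0.651 in stress-low and 5.57 ± 1.02 in stress-high animals (-0.33 ± 0.15, unadjusted p = 0.0451, edgeR). Both had an adjusted p of 1 (edgeR). From control to stress-high no listed gene had an unadjusted p under 0.05. Over all genes the shares were 2.69% from control to stress-low, 1.91% between the stress groups and 2.53% from control to stress-high.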

How the data were processed

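Poly-A RNA of 25 rat libraries was analysed. The authors aligned reads to Rn5 with STAR 2.6.0a and quantified genes with RSEM 1.3.1. The deposited expected counts are RSEM's estimates, and the deposited TPM values, lengths and effective lengths come from the same run. The depth was 12709493 to 22801247 expected counts in the BLA and 11656439 to 19477932 in the DG. The members and all gene lists were chosen with earlier results of these data known.

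Expected counts were summed by gene name and rounded. The kept libraries of a region were fitted with 3 group means by edgeR 4.0.16 (R 4.3.3) with TMM scaling, after a filter at a minimum count of 10, and p-values were adjusted over all genes (Benjamini-Hochberg, threshold 0.05). EBSeq, used in the study, was not used here. The control farthest on PC1 of log2(TPM + 1) was left out (22.4% of variance in the BLA, 31.2% in the DG). A fit of 6 means tested regions against each other. Scripts were tested on simulated data. Alternatives used DESeq2 1.42.0, RLE factors, no filter, limma 3.58.1 on log2(TPM + 1) or log2(TPM + 0.1), and single libraries left out. Fold changes are printed for genes with an unadjusted p under 0.05, for the gene with the lowest p of each comparison, and, chosen after its values were seen, for Gadd45b and other members as ranges. Each library is 1 animal per region. Promoters came from RefSeq (GRCr8, 9 of 9 genes matched). The values of 1 listed gene are not reported here.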

Additional observations from a re-analysis of the deposited data

Results flagged for a closer look

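The BLA library of control animal 17 had 10.3 TPM of Dnmt3a, and its gap to the nearest of the 6 kept controls took a share of 0.659 of the group's range, above the critical value of 0.625 (Dixon). It was 1 of 18 control groups examined, and chance flags about 5% of groups.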

How the results depend on the processing

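The count of genes called was 0 of 9 in each of the 9 comparisons and in all 144 counts under alternatives, of which the differences between regions had 5 each. The lowest adjusted p of a gene of the set in any of them was 0.439. Fold changes followed under the alternatives numbered 11. They were those of the gene with the lowest p in each comparison and the other Gadd45b values against controls, in BLA stress-high and DG stress-low animals. All 11 kept their sign. Tet3 in the BLA from control to stress-high (-0.11 by counts) was not among them, and its mean TPM rose from 7.41 to 8.76. Counts at an unadjusted p under 0.05 were less stable and changed in 26 cases. In the DG from control to stress-high, Gadd45b ranged from -0.39 to -0.21 (unadjusted p 0.0236 to 0.14) when single libraries were left out, and Mbd3 between the stress groups from 0.11 to 0.17 (0.0208 to 0.111). With the title's replicate number as a block, the counts called were 0, and these 2 values were -0.26 (unadjusted p = 0.0967) and 0.15 (unadjusted p = 0.0575, edgeR). Deviations of same-numbered libraries from their group means had correlations of -0.15 to 0.07 in the BLA and -0.17 to 0.08 in the DG. Pairs with different numbers had -0.09 to 0.11 and -0.12 to 0.19. Whether the number stands for a shared batch was not tested. Without BLA control 35, whose labels disagree, Gadd45b from control to stress-high was -0.35 (unadjusted p = 0.0573, edgeR). Gadd45b and Tet1, with 72 to 151 and 57 to 165 reads per kept BLA library, have the widest intervals.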

Other observations

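Within groups, deviations of log2(TPM + 1) from the group mean were compared between genes over 12 BLA and 11 DG libraries, as a description. The genes of a library share its RNA quality and depth, and the points of a region share animals with those of the other. The genes most like Dnmt3a among 12996 were Adipor2 (r = 0.84 in the BLA and 0.89 in the DG), Ccdc57 (0.84 and 0.89) and Kmt2c (0.90 and 0.82). Those most like Tet3 were Cacna1d (0.77 and 0.93), Tnik (0.79 and 0.90) and Mpzl1 (0.77 and 0.92). Gadd45b had looser neighbours, Rnf135 (0.64 and 0.86), Tamm41 (0.58 and 0.89) and the unnamed ENSRNOG00000045538 (0.73 and 0.74). Within the set, Dnmt3a and Tet2 had 0.84 in the BLA and 0.57 in the DG, Mbd2 and Mbd3 had 0.79 and 0.39, and Gadd45b and Mbd3 had -0.55 and 0.35.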
